A study of Morus alba with 35 samples.

Results

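White mulberry (Morus alba) cells that had spent 24 h with methyl jasmonate and methylated cyclodextrin were compared with control cells of the same time, by RNA sequencing of 4 elicited and 2 control libraries out of 34 single libraries in the series. The members of the comparison were fixed by the labels of treatment and time, and all genes with enough reads to be tested were followed. Both groups were cell suspensions grown from callus of stem origin, and each replicate was a flask with 8 g of washed cells in 32 g of fresh medium, shaken in the dark. Elicited flasks held 50 mM methylated cyclodextrin and 100 µM methyl jasmonate, while control flasks held neither and received the ethanol in which the hormone was dissolved, at the 2.1 µL per mL that elicited flasks also received. The agents were given together, so their separate contributions at 24 h cannot be told apart in these libraries. The labels state no separate parent suspensions for the flasks, and p-values therefore measure the spread between flasks. The deposited table gives each gene an identifier and exon coordinates but no name or product, so the origin of the cells could not be checked against marker genes and no role is given to any gene below.

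Jasmonates are hormones through which plants answer wounding and attack. In model plants the active hormone leads to the destruction of JAZ repressors, which frees transcription factors such as MYC2 to switch on genes of defence and specialised metabolism. Mulberry is known for stilbenes, a class that includes resveratrol and oxyresveratrol and that is built from phenylalanine by way of p-coumaroyl-CoA and stilbene synthase. Cyclodextrins are rings of sugar units with a hollow that takes up hydrophobic molecules, and with jasmonate they are used to make cultured plant cells secrete such compounds.

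The 6 libraries held between 18050519 and 18540515 counts. Each lay nearest to the mean of its own group, but that mean includes the library itself, which favours this outcome. The controls resembled each other more closely (median absolute log2 difference between them 0.11) than the elicited libraries did (0.152 to 0.212 over their pairs). Of 31401 genes in the table, 24735 had a count at 24 h and 20107 passed the minimum count and were tested. Values per gene below are counts per 1000000 counts of scaled library size (CPM), and a gene was called at a Benjamini-Hochberg adjusted p below 0.05 in edgeR's quasi-likelihood test over all 34 libraries. In bulk RNA, fewer cells of a kind and less RNA per cell cannot be told apart.

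At 24 h 7956 of the tested genes (39.6%) differed between elicited and control cells, in both directions. Elicited cells had higher levels of 4366 genes (21.7% of those tested) and lower levels of 3590 (17.9%). By size, 1919 genes gained 2-fold or more (9.54%) and 1425 lost 2-fold or more (7.09%), 434 and 131 were at least 8-fold higher and lower, and 98 and 5 at least 32-fold. Among genes with at least 10 counts in the lower group, an 8-fold or larger gain was found in 244 and a loss of that size in 85. The median called increase was 0.87 on the log2 scale (median SE 0.18) and the median decrease −0.81 (median SE 0.19).

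All 4 elicited libraries lay above both controls for 4318 of the 4366 higher genes, an arrangement found in 31.7% of tested genes, and below both controls for 3575 of the 3590 lower genes, an arrangement found in 30.6%. The balance of the directions depended on scaling. Scaling by library size alone moved the median of all tested genes from 0.00 to −0.22 on the log2 scale and gave 2800 higher and 6086 lower genes, of which 1513 and 2037 were past 2-fold, so that lower genes were then the more numerous in both counts. Higher and lower genes alike depended on the controls, since both were fewer when either control replicate was left out. Of the 2019 tested genes that share exon bases with another gene, 660 were called (32.7%), and without such genes 4011 were higher and 3285 lower.

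The gene with the largest fold among well-measured increases was Mal_HE_154X_1_chr006g011570, a gene of 4 exons and 1123 exon bases on the minus strand of chromosome 6, at 11986499 to 11988353. Coordinates here and below are those of the deposited table, whose genome build is not given in the sources used here. Its level was 0.780 and 0.473 CPM in control replicates 1 and 2, from 17 and 10 counts, and 102, 101, 86.7 and 46.0 CPM in elicited replicates 1 to 4. It was near the bottom of the measured range in both controls and well above it in each elicited library, with replicate 4 lowest. The means were 0.627 ± 0.217 CPM (SD, n = 2) and 83.9 ± 26.3 CPM (SD, n = 4), a log2 fold change of 7.05 (SE 0.61, adjusted p = 1.16e-09 by edgeR's quasi-likelihood test). Controls of 12 h averaged 9.27 CPM (n = 2) and those of 48 h 0.0445 CPM, where both libraries held 2 counts in all.

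The gene with the largest gain in CPM was Mal_HE_154X_1_chr008g004370, with 2 exons and 1648 exon bases on the minus strand of chromosome 8, at 3602615 to 3604828. It was already abundant in controls, at 2295 and 2262 CPM, and stood at 14706, 15913, 11832 and 10806 CPM in elicited replicates 1 to 4. The groups did not overlap, and elicited replicate 2 was the highest. The means were 2279 ± 22.8 CPM (SD, n = 2) and 13314 ± 2393 CPM (SD, n = 4), with a log2 fold change of 2.55 (SE 0.28, adjusted p = 5.06e-08 by edgeR's quasi-likelihood test). Per kilobase of exon it had the highest level of any tested gene in elicited cells, 8079 CPM per kb, against rank 24 and 1383 CPM per kb in controls. On average 1.33% of all counts of an elicited library came from it, and 0.267% of those of a control.

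Among well-measured decreases the largest fold was that of Mal_HE_154X_1_chr003g016450, with 5 exons and 1611 exon bases on the plus strand of chromosome 3, at 19587888 to 19593121. It was at 133 and 117 CPM in the controls and at 3.34, 3.45, 5.59 and 5.51 CPM in elicited replicates 1 to 4. All elicited libraries were far below both controls. The means were 125 ± 11.4 CPM (SD, n = 2) and 4.47 ± 1.25 CPM (SD, n = 4), with a log2 fold change of −4.80 (SE 0.40, adjusted p = 5.07e-10 by edgeR's quasi-likelihood test). At 48 h its control mean was 461 CPM and its elicited mean 3.08 CPM.

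The largest loss in CPM belonged to Mal_HE_154X_1_chr008g016320, a gene with 1 exon of 486 bases on the plus strand of chromosome 8, at 16755499 to 16755984. Controls held it at 1793 and 1637 CPM, and elicited replicates 1 to 4 at 81.0, 70.0, 123 and 127 CPM. It ranked 3 by level per kilobase of exon in controls and 561 in elicited cells. The means were 1715 ± 110 CPM (SD, n = 2) and 100.4 ± 29.2 CPM (SD, n = 4), with a log2 fold change of −4.09 (SE 0.38, adjusted p = 3.92e-09 by edgeR's quasi-likelihood test).

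**Figure D1:**
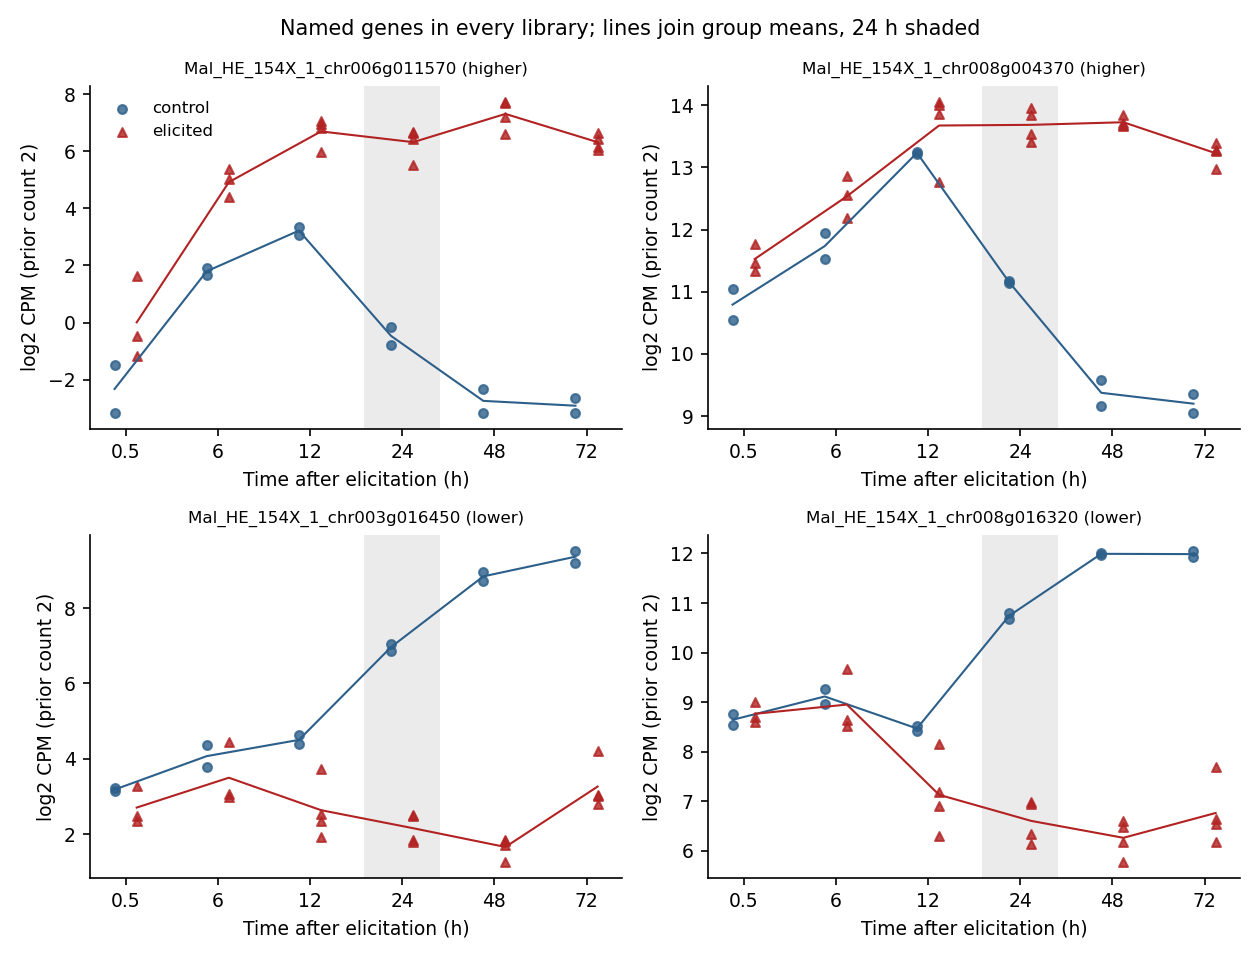
Log2 CPM (with a prior count of 2) of the 4 named genes in each library against time after elicitation in h, with circles for controls, triangles for elicited libraries, lines through the group means and 24 h shaded. At 24 h the elicited libraries lie above both controls for the pair in the upper panels (46.0 to 102 against 0.473 and 0.780 CPM in the left one) and below both for the pair in the lower panels, and the control line moves between 12 and 24 h in each panel.

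The longest stretches of adjacent increases lay on chromosome 8. There, 21 genes in 2 uninterrupted stretches of tested genes were all higher by 2-fold or more in elicited cells, 10 of them at 3602615 to 3687437 and 11 at 3860972 to 3962096. All 21 lie on the minus strand, and 19 have 2 exons. The abundant chromosome 8 gene described above is the first of them. Since neighbouring genes of like structure can be near-identical copies, and the treatment of reads that map to several genes is not given in the sources used here, how reads were divided among the 21 is uncertain, and summed values are given.

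The summed level of the 10-gene stretch was 2517 and 2509 CPM in the controls and 20328, 21910, 15566 and 14200 CPM in elicited replicates 1 to 4. The controls were almost equal and each elicited library was several times higher. Most of each sum came from the first gene, the abundant one described above. That gene gave 2295 CPM in control replicate 1 and 14706 CPM in elicited replicate 1. Log2 fold changes of the genes in the 10-gene stretch ran from 2.02 to 4.87, with a median of 4.34. The 11-gene stretch summed to 1273 and 1361 CPM in the controls and to 9168, 9258, 7410 and 6584 CPM in elicited replicates 1 to 4. Its log2 fold changes ran from 1.94 to 7.70 with a median of 4.46, and 2 of its genes had at most 3 counts over both controls, for which a fitted fold is no bound. Replicates 1 and 2 were above replicates 3 and 4 in both stretches. In the 11-gene stretch, gene 9 in order held 1035 and 1105 CPM in the controls. In elicited replicates 1 to 4 it held 4378, 4317, 4084 and 3622 CPM.

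Together the 21 genes took 2.89%, 2.99%, 2.36% and 2.16% of the counts of elicited replicates 1 to 4, against 0.446% and 0.453% of the controls. The 173534 bases between the stretches held 13 tested genes, of which 2 were past 2-fold higher and 1 was past 2-fold lower. Over all tested genes these shares were 9.54% and 7.09%. Of the 3 genes with 2 exons in this interval, 2 were the higher ones. A stretch ends by definition at a gene not past 2-fold higher, so this gap follows from how the stretches were chosen.

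The levels of the same region at the neighbouring times came from other libraries. At 12 h the 10-gene stretch averaged 20005 CPM in elicited cells and 12276 CPM in controls, and at 48 h 18233 and 735 CPM. The 11-gene stretch averaged 8753 and 5668 CPM at 12 h, and 9434 and 516 CPM at 48 h. The elicited sums thus stayed within a narrow range from 12 to 48 h, while the control sums were lower at each later time. Most of the 10-gene sum came from its first gene. At 12 and 48 h that gene averaged 13828 and 13555 CPM in elicited cells and 9625 and 671 CPM in controls. From 12 to 24 h, controls fell in 21 of the 21 genes (median step −3.68 on the log2 scale, with a fall called in 9.88% of all tested genes), and the elicited step was called in 2 of them (median −0.50, with a step in either direction called in 10.4%). By edgeR, 0 of the 21 genes were called higher at 0.5 h and 1 at 6 h, while the calls at 12, 48 and 72 h numbered 16, 21 and 21. Of all tested genes, 2.34%, 3.64%, 12.8%, 26.5% and 22.3% were called higher at 0.5, 6, 12, 48 and 72 h.

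**Figure D2:**
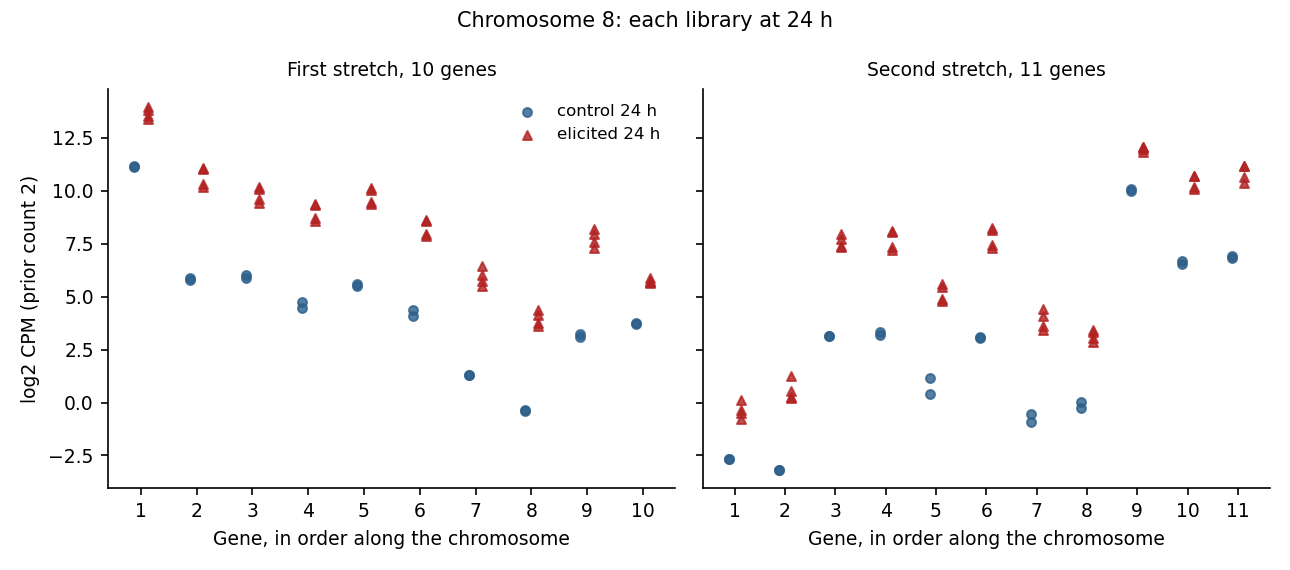
Log2 CPM (with a prior count of 2) of each gene of the 10-gene stretch (left) and the 11-gene stretch (right) of chromosome 8 in every 24 h library, with genes in order along the chromosome on the x axis, circles for controls and triangles for elicited libraries. In all 21 genes the 4 elicited libraries lie above both controls, with fitted log2 fold changes from 1.94 to 7.70.

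Increases lay beside each other more often along the chromosomes than decreases did. The next tested gene after a gene at least 2-fold higher was itself at least 2-fold higher in 445 of 1909 cases (23.3%, against 9.58% of all placed genes). For genes at least 2-fold lower it was in the same class in 169 of 1416 cases (11.9%, against 7.12%). A gene at least 2-fold lower followed a gene at least 2-fold higher in 4.92% of cases. There were 74 stretches of at least 3 adjacent higher genes and 18 of at least 3 adjacent lower genes, and of 5 or more there were 15 and 0.

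The 15 stretches of 5 or more held 94 genes on 9 chromosomes, and 9 stretches lay wholly on 1 strand. Of the 94 genes, 40 had 2 exons and 23 had 1 exon. Exon bases were shared with another gene in 13, and reads on the shared bases may not be told apart from those of the partner. Next in length after the pair on chromosome 8 was a stretch of 8 genes on the plus strand of chromosome 2, at 5266295 to 5412706, whose summed level averaged 16.8 ± 2.31 CPM in controls (SD, n = 2) and 178 ± 36.8 CPM in elicited cells (SD, n = 4). The 6 genes on the plus strand of chromosome 9 at 117714 to 146704, of which 2 share exon bases, averaged 568 ± 1.46 and 3279 ± 302 CPM (SD, n = 2 and 4). A stretch of 5 on chromosome 3, at 20723412 to 20791762, averaged 231 ± 23.4 CPM in controls and 1929 ± 498 CPM in elicited cells (SD, n = 2 and 4).

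Some stretches were nearly silent in controls. The 5 genes on the plus strand of chromosome 3 at 648039 to 694251 summed to 1.15 and 1.18 CPM in the controls and to 79.5, 158, 88.9 and 69.6 CPM in elicited replicates 1 to 4. The 5 genes of chromosome 1 at 870240 to 926043 summed to 0.688 and 0.852 CPM in the controls and to 103, 147, 73.3 and 51.0 CPM in elicited replicates 1 to 4. Replicate 2 was the highest elicited library in both. In each stretch 1 gene gave most of the elicited sum. The one on chromosome 3 was at 62.2, 124, 69.5 and 56.6 CPM in elicited replicates 1 to 4. That on chromosome 1 was at 89.0, 125, 63.8 and 42.7 CPM. Of the 94 genes, 17 had at most 3 counts over both controls, as did 537 of the 20107 tested genes.

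The changed genes redistributed a large share of the sequenced RNA. Genes called higher held 41.2%, 43.6%, 40.4% and 38.5% of the counts in elicited replicates 1 to 4, against 20.2% and 20.4% in the controls, and genes called lower held 13.6% to 16.0% against 28.4% to 28.5%. Those shares follow from the calls and are given as a description. Genes chosen by their calls in the contrasts of 12 h and 48 h, which hold no 24 h library but share the model's spread with it, held 24.4%, 25.8%, 24.0% and 22.7% in elicited replicates 1 to 4 and 10.5% and 10.6% in the controls where higher. Where lower, they held 4.40% to 5.35% in elicited libraries and at least 10.9% in both controls. The 10 genes with the largest gain in CPM took 4.37% to 5.61% of elicited counts and 1.13% to 1.18% of control counts, and they lay on 6 chromosomes.

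The elicited flasks differed in how far they lay from the controls. The genes used here were called with these same libraries, so the values are a description. The median log2 ratio to the control mean over the 1919 higher genes was 1.71, 1.96, 1.76 and 1.58 in replicates 1 to 4, and over the 1425 lower genes it was −1.60, −1.74, −1.56 and −1.39. Replicate 2 was the highest elicited library for 1157 of the 1919, replicate 4 for 161. Replicate 2 was also the lowest for 630 of the 1425 and replicate 4 for 135. Without replicate 2 the numbers past 2-fold, higher and lower, were 1800 and 1299, and without replicate 4 they were 1946 and 1470.

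The effect of elicitation at 24 h was compared with that at 12 h, using the difference between the 2 differences as a contrast of its own. For most genes that separated further between these times, control cells had moved and elicited cells had not detectably done so. The effect differed for 1013 genes (5.04% of those tested), being more positive at 24 h in 589 (2.93%) and more negative in 424 (2.11%). Of the 1013, 557 were called higher at 24 h with a larger effect than at 12 h, and their median log2 fold change went from 0.46 to 1.79. Controls fell between 12 and 24 h in 521 of these 557, and elicited cells rose in 39 and fell in 45. The median control step was −1.36 and the median elicited step −0.03.

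Among lower genes controls moved in the opposite sense. Elicited cells moved with the effect in a larger share of them (18.8%) than of the higher genes (7.00%). Of 389 genes called lower at 24 h with a larger effect than at 12 h, controls rose in 326, and elicited cells fell in 73 and rose in 12. Median steps were 1.18 (controls) and −0.24 (elicited cells), and the median effect went from −0.21 to −1.70. Over all tested genes, controls rose between 12 and 24 h in 7.09% and fell in 9.88%, and elicited cells rose in 4.99% and fell in 5.4%. The genes were chosen on the difference of these steps, so the steps are a description of its parts. The step of controls was measured with 2 libraries at each time and that of elicited cells with 4.

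Each control library at 12 and 24 h carried the count of 1013. Without control replicate 1 or 2 at 12 h it was 407 or 451, and without control replicate 1 or 2 at 24 h it was 409 or 412. The share of higher genes with a fall in controls lay between 91.0% and 94.7% when each library was left out in turn, and the share with a rise in elicited cells between 4.99% and 8.16%, around the 7.00% above. Among lower genes, the share with a rise in controls lay between 81.6% and 86.2% when each elicited library was left out, around 83.8%. Their share with a fall in elicited cells lay between 14.5% and 19.5%, around 18.8%. Without a control library the first share was below its range and the second above, in each case. With the replicate number as a block, by title or by column label, the steps compared the lowest-numbered replicates of each time, not group means. The share of higher genes with a fall in controls was then 91.2% or 90.3%.

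All 4 named genes belonged to these sets. Mal_HE_154X_1_chr006g011570 had an effect larger by 3.50 at 24 h than at 12 h (SE 0.73, adjusted p = 0.0041 by edgeR), with a control step of −3.87 (adjusted p = 0.000142) and an elicited step of −0.37 (adjusted p = 0.482). For Mal_HE_154X_1_chr008g004370 the effect was larger by 2.02 (SE 0.35, adjusted p = 0.00105 by edgeR), with a control step of −2.08 (adjusted p = 2.05e-05) and an elicited step of −0.05 (adjusted p = 0.909). Its control mean was 9625 CPM at 12 h and 2279 CPM at 24 h, and its elicited mean 13828 and 13314 CPM. The elicited libraries of 12 h spanned 6980 to 17047 CPM for it, a wider range than at 24 h.

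The lower pair changed by the same route in the opposite sense. For Mal_HE_154X_1_chr003g016450 the effect differed by −3.10 (SE 0.58, adjusted p = 0.00183 by edgeR), with a control step of 2.47 (adjusted p = 0.000371) and an elicited step of −0.63 (adjusted p = 0.308). For Mal_HE_154X_1_chr008g016320 it differed by −2.92 (SE 0.56, adjusted p = 0.0022 by edgeR), with a control step of 2.28 (adjusted p = 0.00104) and an elicited step of −0.64 (adjusted p = 0.207). The control mean of the latter was 354 CPM at 12 h, 1715 CPM at 24 h and 4077 CPM at 48 h, and its elicited mean was 157, 100.4 and 78.5 CPM.

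**Figure D3:**
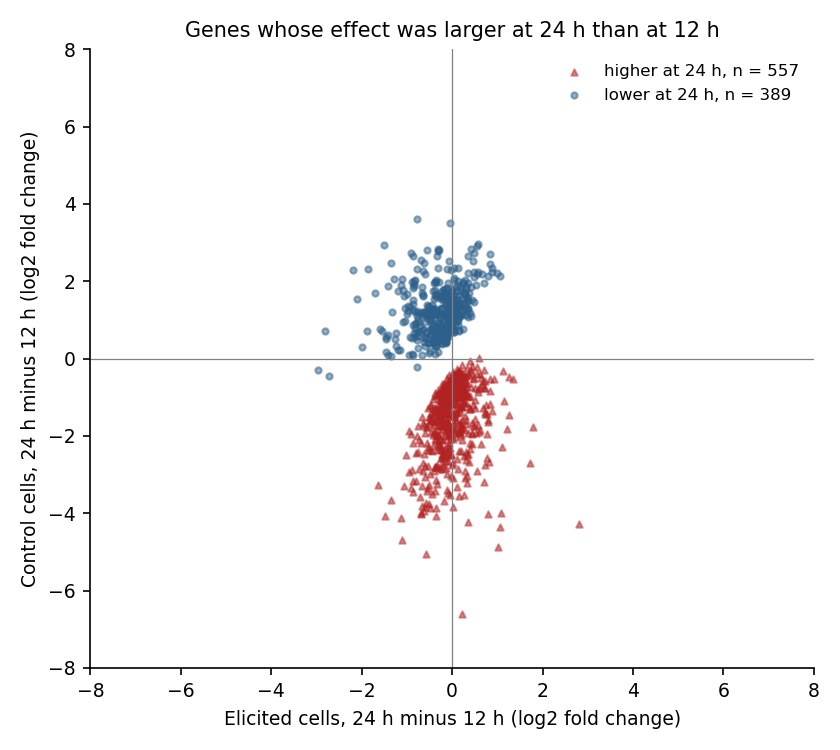
Change from 12 to 24 h in elicited cells (x axis, log2 fold change) and in control cells (y axis, log2 fold change) of genes called at 24 h whose effect was larger there than at 12 h, with triangles for the 557 higher and circles for the 389 lower genes. Higher genes lie mostly below the horizontal zero line and lower genes mostly above it, with control medians of −1.36 and 1.18, while the elicited medians of −0.03 and −0.24 lie near the vertical zero line.

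Between 24 and 48 h the groups moved further apart, and again with more called changes in controls than in elicited cells. The effect differed for 1502 genes (7.47%), more positive at 48 h in 855 (4.25%) and more negative in 647 (3.22%). Without control replicate 1 or 2 at 24 h the count was 724 or 698, and without both libraries that stood apart in the series (elicited 12 h replicate 4 and elicited 48 h replicate 3) it was 2012. Among genes higher at 24 h, 566 had a larger effect at 48 h, with a fall in controls in 456 and a rise in elicited cells in 73. Among genes lower at 24 h, 392 had a larger effect at 48 h, with a rise in controls in 335 and a fall in elicited cells in 36.

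Over all tested genes, the step from 24 to 48 h was called in 14.1% in controls (6.63% rose, 7.49% fell) and in 3.52% in elicited cells (2.04% rose, 1.48% fell). Fewer genes moved in the opposite sense. In 86 genes higher at 24 h the effect was less positive or reversed at 48 h, and its median went from 0.79 to −0.34. Controls rose in 62 of them. In 45 lower genes it was less negative or reversed, and its median went from −0.67 to 0.29. Both medians thus changed sign. Of the named genes, Mal_HE_154X_1_chr008g004370 had an effect larger by 1.79 at 48 h (SE 0.35, adjusted p = 0.0019 by edgeR). That of Mal_HE_154X_1_chr003g016450 was more negative at 48 h, by a difference of −2.42 (SE 0.59, adjusted p = 0.0102 by edgeR). The other two did not pass, with differences of 4.57 (SE 1.56, adjusted p = 0.0736) for Mal_HE_154X_1_chr006g011570 and −1.60 (SE 0.55, adjusted p = 0.0737) for Mal_HE_154X_1_chr008g016320.

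Few genes had an effect that could be shown to be particular to 24 h. Higher levels were called at 24 h and at neither 12 h nor 48 h in 413 genes, and lower levels in 387. In 57 of these genes the effect at 24 h differed from that at 12 h or 48 h by the test of the difference. A difference from either time was enough, which does not by itself make an effect particular to 24 h. Over all tested genes, the effect differed between 12 and 24 h in 5.04% and between 24 and 48 h in 7.47%. The steps of the effect on the 2 sides of 24 h had opposite sense in 9 genes. The effect rose at both steps in 216 genes and fell at both in 101.

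The genes changed at 24 h were then followed in contrasts of the other times, which use no 24 h library. All times share the filter on low counts, the scaling and the estimate of the spread of the 1 model. In elicited cells of 0.5, 6, 12, 48 and 72 h, the 1919 genes past 2-fold higher had median log2 fold changes of 0.25, 0.45, 1.04, 2.30 and 2.06, in that order. At these times 144, 371, 1196, 1694 and 1495 of them were called higher. The backgrounds over all tested genes were 2.34%, 3.64%, 12.8%, 26.5% and 22.3% called higher, and the medians of all tested genes lay between −0.01 and 0.04. For the 1425 genes at least 2-fold lower, the medians were −0.06, −0.16, −0.70, −2.15 and −1.71 and the numbers called lower 21, 69, 548, 1283 and 1166, against 1.64%, 2.6%, 10.2%, 25.1% and 21.8% of all tested genes. At 6 h the share called was 19.3% for higher genes and 4.84% for lower genes, both above the share over all tested genes.

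The reverse selection gave a similar order of sizes. Of 1961 genes called higher at both 12 h and 48 h, 1837 were called higher at 24 h (93.7%, against 21.7% of all tested genes) and 0 lower. Median log2 fold changes of these were 0.85, 1.14 and 1.43 at 12, 24 and 48 h. Of 1335 genes called lower at both times, 1173 were called lower at 24 h (87.9%, against 17.9%), with medians of −0.70, −0.81 and −0.98. In 1218 of the 1961 and 720 of the 1335 genes the 24 h value lay between the 12 h and 48 h values.

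**Figure D4:**
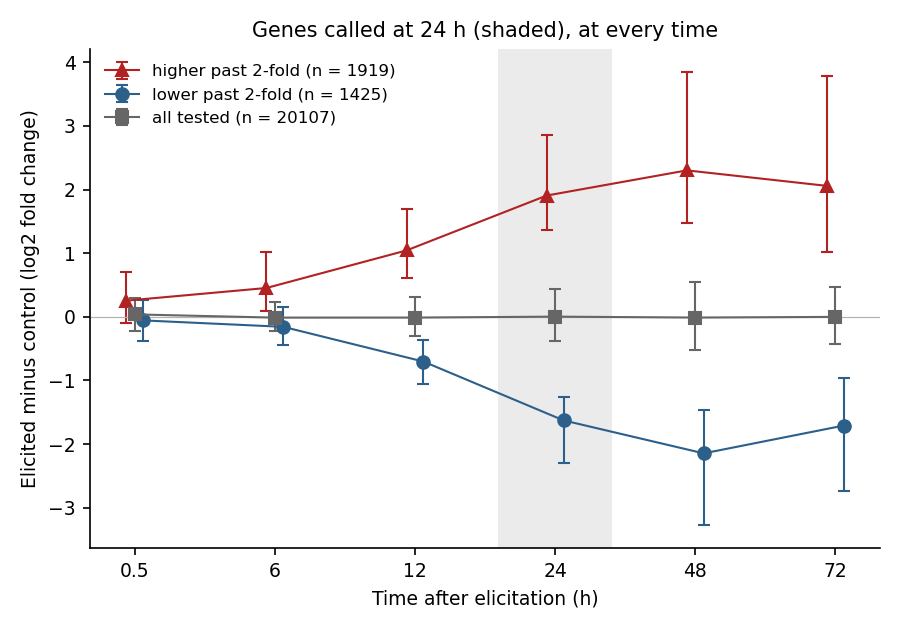
Log2 fold change (elicited minus control) at each time of the genes past 2-fold in either direction at 24 h, as medians with the range between the lower and upper quartiles, beside all tested genes. Medians of the higher genes are 0.25 for 0.5 h, 1.91 for 24 h and 2.30 for 48 h, and those of the lower genes −0.06, −1.63 and −2.15.

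Relative to the cells at the start, the genes higher at 24 h were mostly genes that control cells lost. The start and the 48 h libraries are outside the 24 h contrast, and both comparisons with the start share the 0.5 h controls. Of the 1919 genes at least 2-fold higher at 24 h, controls of 48 h were below controls of 0.5 h in 1456 (75.9%, against 33.4% of all tested genes), with a median of −2.18 on the log2 scale. In elicited cells of 48 h, 808 were above the 0.5 h controls (42.1%, against 29.4%) and 569 below (29.7%, against 29.6%), with a median of 0.32.

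Genes lower at 24 h were mostly genes that control cells gained. Of the 1425, controls of 48 h were above those of 0.5 h in 933 (65.5%, against 30.1% of all tested genes), with a median of 1.57. Elicited cells of 48 h were below the 0.5 h controls in 602 (42.2%, against 29.6%) and above them in 241 (16.9%, against 29.4%), with a median of −0.49.

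Some genes were read in elicited cells and almost absent from controls. Of 537 tested genes with at most 3 counts over both controls, 159 were called higher, and 58 of these had no control read. Such genes could pass the minimum count through groups other than the 24 h controls, so the share called is no measure of their response. The floor of 3 counts corresponds to 0.0699 CPM over the controls. Their mean elicited level had a median of 0.540 CPM and a highest value of 82.5 CPM, and 40 of them had at least 10 counts in every elicited library.

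The same 159 genes were not all silent in control cells at other times. Controls of 0.5, 12, 48 and 72 h held at most 3 counts for 60, 68, 115 and 127 of them. Higher levels were called for 57 of them at 12 h (12.8% of all tested genes) and for 119 at 48 h (26.5% of all). In the opposite direction, 172 tested genes had at most 3 counts over the 4 elicited libraries and 36 were called lower, with a highest control mean of 1.23 CPM. These were fewer than the genes nearly silent in controls, and weakly expressed, though the limit of 3 counts covers 4 libraries here and 2 there.

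Genes with few exons made up more of the changes past 2-fold than genes with many, and short genes more of the increases. Of 3174 tested genes with 1 exon, 14.2% gained 2-fold or more and 8.88% lost 2-fold or more, and of 3381 genes with over 10 exons, 4.94% and 5.35%. By summed exon length, 13.3% of genes under 500 bases and 3.40% of genes of 4000 bases and over were at least 2-fold higher. Decreases past 2-fold had no such order by length, from 7.33% of the shortest class through 8.18% of the class next to the longest to 5.15% of the longest. The median length was 1381 bases for genes at least 2-fold higher, 1637 bases for those at least 2-fold lower and 1585 bases for all tested genes. Genes with 1 exon also had lower levels, with a median of 2.00 log2 CPM at 24 h against 5.22 for those with over 10 exons.

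Within 1 band of level, 4 to 6 log2 CPM in the 0.5 h controls, the order was kept for increases. There, 18.8% of 554 genes with 1 exon and 3.14% of 1275 genes with over 10 exons were at least 2-fold higher. Likewise 24.8% of 113 genes under 500 bases and 2.56% of 273 genes of 4000 bases and over were at least 2-fold higher. Decreases kept the order by exon number in that band. At least 2-fold lower were 6.32% of genes with 1 exon and 2.35% of those with over 10. By length decreases ran the other way, with 2.65% of the shortest class and 5.86% of the longest at least 2-fold lower. Calls without a fold minimum showed the same shift, since 40.7% of the shortest class were higher and 8.85% lower, while 9.16% of the longest were higher and 28.9% lower. At all levels, 9.75% of the longest class were higher and 20.5% lower. Without control replicate 1 these shares were 5.30% and 11.1%, without control replicate 2 they were 5.73% and 11.8%, and with library size alone 5.04% and 38.0%. RNA integrity per library was not among the values used here, and its part in differences by length was not tested.

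**Figure D5:**
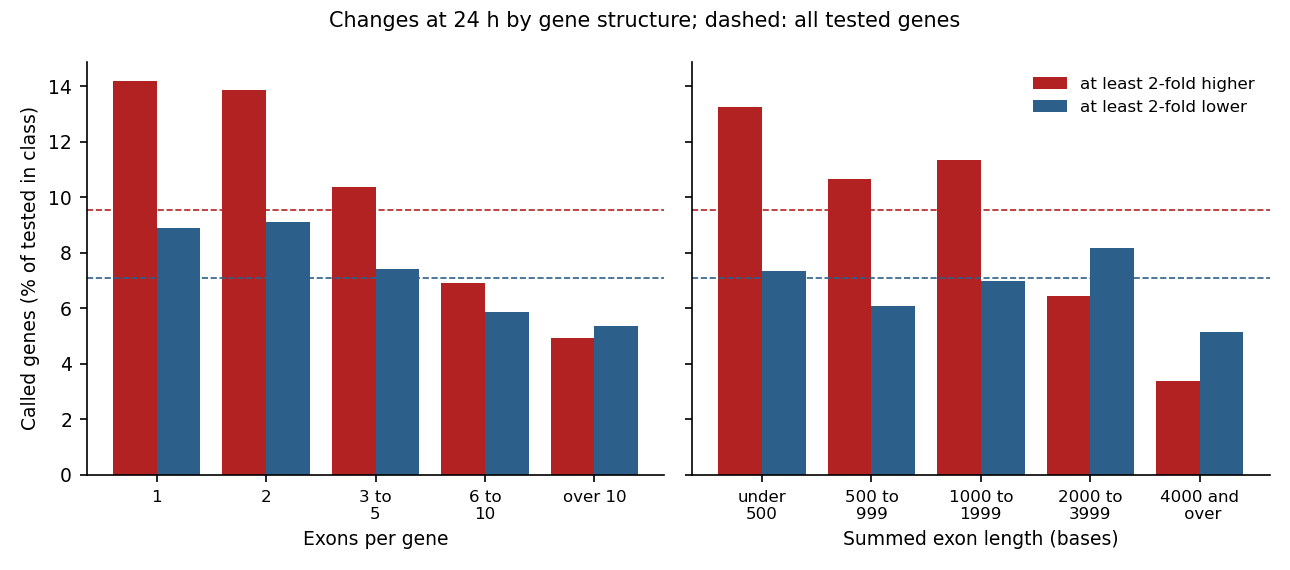
Percentage of tested genes that were at least 2-fold higher or at least 2-fold lower at 24 h, by number of exons (left) and by summed exon length in bases (right), with dashed lines at the values for all tested genes. Increases go from 14.2% of genes with 1 exon to 4.94% of those with over 10, and from 13.3% of genes under 500 bases to 3.40% of those of 4000 and over.

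Genes that were abundant at the start were more often higher at 24 h. Of 723 genes with at least 8 log2 CPM in the 0.5 h controls, 41.5% were called higher and 16.7% lower, and 24.3% were at least 2-fold higher against 4.84% at least 2-fold lower. Of 2777 genes under 0 log2 CPM, 9.72% were called higher and 12.7% lower. Low counts limit the calls in the latter class. Across the 14 numbered chromosomes, the genes called higher ran from 18.2% on chromosome 1 to 26.2% on chromosome 11, and those called lower from 11.6% on chromosome 1 to 22.6% on chromosome 14.

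No call was made for 12151 tested genes. For the 4821 of them with a mean of at least 4 log2 CPM, the median absolute log2 fold change was 0.14 and the median SE 0.13, and the 0.9 quantile of the absolute change was 0.30. Differences of that size were not detectable with these libraries, which does not show that the levels were equal.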

How the data were processed

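The authors deposited 1 table of raw read counts for 31401 genes, with exon coordinates and no normalization. The submitters' processing notes name fastp, STAR and featureCounts. Not given in the sources used here are versions and settings, the genome build, whether strand was used in counting, and how multi-mapping reads were handled. Total counts were 17191217 to 18897243 per library, and floors of 3 counts cover counting error only. The pooled long-read sample is not analysed here.

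Tests used edgeR 4.0.16 under R 4.3.3: a filter on low counts (filterByExpr, minimum count 10), TMM factors, and 1 quasi-likelihood model of 34 libraries with 12 group means. The contrasts took elicited minus control at single times, differences of these between times, steps between times within a treatment, and levels against the 0.5 h controls. P-values were adjusted by Benjamini-Hochberg over 20107 genes and called below 0.05. Log2 CPM used a prior count of 2. Each SE is derived from the F statistic of the test. The test was checked on simulated counts with known changes. These were few, balanced in direction and of 1 spread for all genes. The check therefore did not cover scaling under as many changes as were called here.

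The comparison and the gene classes were chosen with earlier results of these data known. In the absence of gene names, 2 higher and 2 lower genes were named: among called genes whose groups did not overlap, with a mean of at least 2 log2 CPM, at least 10 counts in each group and no shared exon bases (3366 higher and 2464 lower), the one with the largest fold change and the one with the largest difference in CPM. Planned pathway lists need gene names and could not be used. Alternatives were scaling by library size or by DESeq2 size factors, DESeq2 1.42.0 itself, no filter or a minimum count of 30, single times, replicate blocks, and each replicate left out. Level classes from the 0.5 h controls and the fit without both libraries that stood apart were added after seeing the data. No 2 libraries of 24 h differed by as little as sampling noise (chi-square per degree of freedom 2.79 to 26.1).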

Additional observations from a re-analysis of the deposited data

Results flagged for a closer look

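The number of genes whose effect of elicitation differed between 12 and 24 h was 1013, and between 24 and 48 h it was 1502, by the test of the difference in edgeR. Among the named genes the effect at 24 h minus that at 12 h was 3.50 for Mal_HE_154X_1_chr006g011570, 2.02 for Mal_HE_154X_1_chr008g004370, −3.10 for Mal_HE_154X_1_chr003g016450 and −2.92 for Mal_HE_154X_1_chr008g016320, on the log2 scale. The effect at 48 h minus that at 24 h was 1.79 for Mal_HE_154X_1_chr008g004370 and −2.42 for Mal_HE_154X_1_chr003g016450.

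Among 39 sets of values from 4 libraries, 1 held a library far from the others. For Mal_HE_154X_1_chr003g016450 in elicited cells at 72 h, the gap of the extreme library to the nearest was 0.883 of the range of 6.79 to 18.3 CPM, past Dixon's critical value for a group of that size. Chance gives such a gap in about 1 of 20 groups.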

How the results depend on the processing

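The 4 named genes kept sign and call under all 15 alternatives each, with log2 fold changes of 6.74 to 7.45, 2.31 to 2.75, −5.20 to −4.68 and −4.51 to −3.96 and a largest adjusted p of 2.48e-05. Of the counts of genes under settings other than leaving out a library, 51 stayed within 1.5 times the reported count and 3 did not: 2800 higher and 6086 lower genes were called with library sizes in place of scaling factors (1513 and 2037 past 2-fold), which turns the excess of higher genes into one of lower genes, and a replicate block by the number in the column label gave 568 genes whose effect differed between 12 and 24 h. DESeq2 called 4373 higher and 3867 lower genes. With each library left out, lower genes numbered 2316 to 3431, higher genes 2968 to 4262, genes whose effect differed between 12 and 24 h 407 to 1147, and between 24 and 48 h 698 to 1831. The lowest values came without a control library, which leaves 1 control whose spread is assumed to be that of the other groups. The cause was not tested for the other shifts.

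Titles and column labels number the replicates differently, and by neither number did same-numbered flasks deviate together beyond a correlation of 0.1: at 24 h the deviations of same-numbered flasks from their group means correlated at 0.00464 and 0.0121 by title and at 0.00464 and −0.0355 by column label. At 12 h they correlated at 0.0446 and 0.00439 by either number, and at 48 h at 0.0858 and −0.0746 by title and 0.0746 and −0.124 by column label. With the replicate block by title, 4039 genes were higher, 3229 lower, and 905 and 1148 differed in effect from 12 h and at 48 h. By column label these were 3771, 2798, 568 and 1069.

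With 2 controls, the power to detect small changes and changes of genes near the floor was limited. Of 537 tested genes with at most 3 counts over both controls, 159 were called higher.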
